A study of Homo sapiens with 6 samples.

Results

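HT-29 is an established cell line from a human colorectal cancer, and its RNA was sequenced in 6 libraries. The genes described here encode ion channels, ion and lipid pumps of the P-type ATPase class, ABC transporters, aquaporins and purinergic receptors. They were chosen by gene symbol, among the protein-coding genes of the deposited table, with no measured value in the rule. The choice gave 67 genes of the 5681 in the table, of which 4129 were protein coding. The Scramble group (n = 3 libraries, genotype label WT) carried a control hairpin. The shOGT group (n = 3 libraries, genotype label OGT knock down) carried a hairpin against OGT, the enzyme that attaches O-linked N-acetylglucosamine to intracellular proteins. Every library therefore came from cells infected with a hairpin, and untransduced cells were not analysed here. The study's oligonucleotide list holds more than 1 hairpin against OGT and does not say which one was sequenced. Nothing in the labels says that the libraries came from separate cultures, so p-values measure only the spread between these libraries, which may be technical.

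Channels let ions run down their gradients, pumps spend ATP to build those gradients, and ABC transporters use ATP to move lipids, drugs, bile salts and conjugates across membranes. In the colonic epithelium the sodium gradient made by the Na,K-ATPase drives absorption, while CFTR, the apical chloride channel, together with basolateral potassium channels such as KCNQ1 and KCNN4, drives fluid secretion. Aquaporins carry water and, in the case of AQP3, glycerol. Intracellular pumps and exchangers, the V-ATPase and CLCN7 among them, acidify lysosomes.

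The values were normalized counts, that is, reads scaled by 1 size factor for each library, with no division by gene length. The recovered reads on the table's genes numbered 4145921 to 4504303 per Scramble library and 3302558 to 3471647 per shOGT library. Every listed gene was past a 2-fold change with an adjusted p under 0.05 in the authors' own columns. Each had thus already changed by their test, and a gene outside the table was not analysed here. OGT, examined as a check of the labels, stood at 9628, 11638 and 11619.5 in Scramble against 484, 621 and 537 in shOGT, which left 4.99% of the Scramble level. An exact two-sided permutation test of these 6 values gave p = 0.1, below which 3 libraries against 3 cannot go. Of 11 markers of colorectal epithelium, 4 were listed. KRT20 rose from a mean of 877 to 5641 and KRT19 from 4740 to 12388, while LGALS4 fell from 2201 to 561 and VIL1 from 1891 to 868. Of 5 markers of other cell types, the endothelial marker PECAM1 was listed, at 47.5 in Scramble and 168 in shOGT. The part of such differences in the results below was not tested, and in bulk RNA fewer expressing cells and less RNA per cell cannot be told apart.

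Of 322 annotated protein-coding genes whose symbols match the rule, 67 (20.8%) were in the table. The listed share differed in size between families, with 7 of 13 aquaporins, 6 of 12 ABCA lipid transporters, 16 of 46 ABC transporters in all, 9 of 38 P-type ATPases, 17 of 97 potassium channel genes and 4 of 44 sodium and calcium channel genes. None was listed of 4 ABCE and ABCF translation factors, 5 P5 ATPases, 3 CLCA proteins and 5 LRRC8 volume-regulated anion channel genes. These shares are descriptions, since the authors' thresholds and the depth of each gene set which genes appear.

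All 67 genes reached a normalized count of 1 in 3 or more libraries and so passed the filter. Calls were made where limma's trend method on log2(normalized count + 1) gave a log2 fold change over 1 in size and a Benjamini-Hochberg adjusted p under 0.05. By this rule 66 of the 67 genes were called, beside 99.4% of all genes tested and 99.5% of the protein-coding genes tested. The number follows from how the table was made and carries no information on these genes. Of the 67, 38 were higher in shOGT (56.7%) and 28 were lower (41.8%). Among all genes tested 52.2% were called higher and 47.2% lower, and among protein-coding genes tested 42.3% were called higher and 57.1% lower. The family counts given below are small, stand beside these same shares, and are descriptions only. The median log2 fold change of the 67 genes was 1.21, beside 1.05 for all genes and −1.11 for protein-coding genes. With the genes at or below 3 reads in every Scramble library set to a bound from that floor, the median of the 67 was 1.09. In 65 genes the libraries of the 2 groups did not overlap. The exceptions were TRPM5, the gene not called, and KCNJ3. This count was not made over all genes of the table. Genes listed for a 2-fold change tend to separate, so nothing is read from it.

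Directions were also counted by level. Of the 31 genes with a mean of at least 100 normalized counts, 12 were higher and 19 lower (38.7% and 61.3%, beside 35.0% and 64.5% of protein-coding genes at that level). Of the 36 genes below 100, 26 were higher and 9 lower (72.2% and 25.0%, beside 56.8% and 42.7%). With a mean of at least 10, 29 were higher and 26 lower. Low genes could pass the filter through the shOGT libraries alone and then had to differ, so nothing is read from this split. A total of 9 higher genes had no more than 3 reads in each of the Scramble libraries, and no gene had so few in every shOGT library. Size factors were 1.09 to 1.13 for the Scramble libraries and 0.879 to 0.95 for the shOGT libraries.

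The count of lower genes depended on the scaling. A median-of-ratios rescaling of the libraries, computed from the listed genes, moved the median over all genes up by 0.71 on the log2 scale, from 1.05 to 1.76. On that scale 48 of the 67 genes were called, 38 higher and 10 lower, beside 42.6% higher and 22.6% lower of the protein-coding genes. No gene of the 67 changed direction. This rescaling takes the middle listed gene as unchanged, although 99.4% of all genes tested were called in the main fit. With edgeR's TMM scaling of the recovered reads, 29 of the 67 were lower. A mark of not called after rescaling therefore describes the median-of-ratios scaling only. The 10 that stayed lower were CFTR, ABCG1, AQP2, AQP3, AQP7, KCNQ1, KCNMB4, KCNJ3, KCNJ5 and SCN4A, and the other lower genes of the 67 named below are marked as not called after rescaling.

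**Figure D1:**
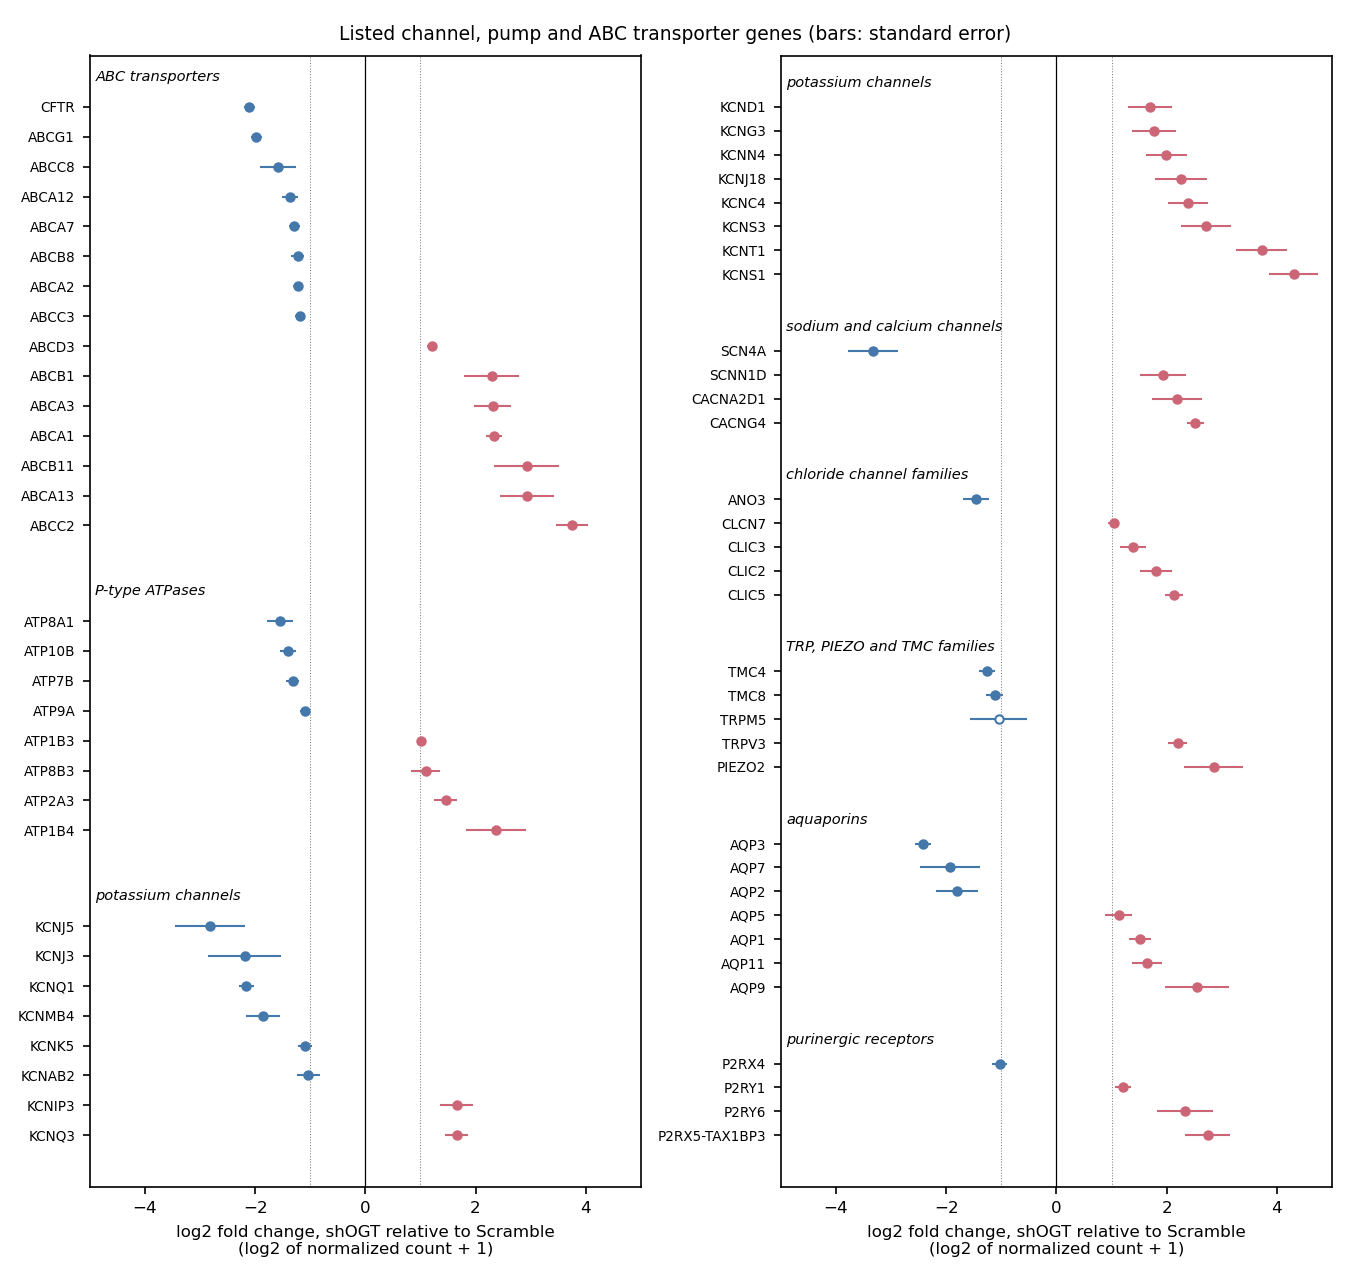
Log2 fold changes of 64 of the 67 genes in shOGT relative to Scramble, on log2(normalized count + 1), grouped by role, with points for the fitted value and bars for the standard error (3 libraries per group). Of the filled points, 37 lie above 1 and 26 below −1, the open point at −1.05 is TRPM5, which was not called, and the values of the 8 genes shown with almost no Scramble reads depend on the pseudocount.

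Among ABC transporters, 7 of the 16 listed genes rose and 9 fell in shOGT. CFTR (ENSG00000001626, chromosome 7 from 117465784 to 117715971 on GRCh38) is the family member that works as a chloride channel. Its normalized counts were 3234, 3218 and 3413 in Scramble against 686, 847 and 769 in shOGT. All shOGT libraries lay far below the Scramble libraries, and the mean went from 3288 ± 108 to 768 ± 80.5 (SD, n = 3), or 23.3% of the Scramble level (log2 fold change −2.10, SE 0.09, adjusted p = 1.38e-10). After rescaling its log2 fold change was −1.39. ABCC3 (chromosome 17 from 50634777 to 50692252), an efflux transporter for organic anions and glucuronides, had the most counts of the ABC genes. Its values were 9511, 8554 and 8662 in Scramble against 4172, 3694 and 3868 in shOGT. That is 43.9% of the Scramble level (log2 fold change −1.19, SE 0.08, adjusted p = 9.58e-09), and it was not called after rescaling, at −0.47. ABCC8, the sulphonylurea receptor that regulates ATP-sensitive potassium channels, had few reads, with 82.5, 73.9 and 46.9 in Scramble against 29.5, 20.4 and 15.9 in shOGT. Its groups were apart (log2 fold change −1.59, SE 0.32, adjusted p = 3.20e-04), and it was not called after rescaling, at −0.89.

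ABCC2 and ABCB1 rose. ABCC2 (chromosome 10 from 99782640 to 99852594), an exporter of conjugates, stood at 7.10, 10.8 and 7.36 in Scramble against 117, 123 and 133 in shOGT. Every shOGT library was over 10 times every Scramble library, and the mean went from 8.42 ± 2.07 to 124 ± 8.24 (SD, n = 3) (log2 fold change 3.75, SE 0.29, adjusted p = 2.41e-08). ABCB1 (chromosome 7 from 87503633 to 87713323) encodes P-glycoprotein, the drug efflux pump. Its counts were 2.66, 7.21 and 17.5 in Scramble against 41.0, 41.8 and 35.3 in shOGT, so that the Scramble libraries spread widely while the shOGT libraries were close together (log2 fold change 2.29, SE 0.50, adjusted p = 5.05e-04). ABCB11, the bile salt export pump, had 3 reads over the Scramble libraries and 42 over the shOGT libraries, a ratio of 16.9 with a 95% counting interval (exact binomial, counting error only) from 5.38 to 85.0. Its shOGT values of 25.3, 15.0 and 4.55 varied widely. The Scramble libraries of ABCB11 alone did not reach the filter, so the interval is no support for a rise. The fitted log2 fold change of 2.93, which depends on the pseudocount, was 2.44 without shOGT library 4 and 3.56 without library 6. ABCB8, a transporter of the inner mitochondrial membrane, fell from 521 ± 48.3 to 222 ± 11 (SD, n = 3) (log2 fold change −1.23, SE 0.12, adjusted p = 2.24e-07) and was not called after rescaling, at −0.51.

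The sterol and lipid transporters split. ABCA1 (chromosome 9 from 104781002 to 104928237) hands cellular cholesterol to apolipoprotein A-I, and ABCG1 (chromosome 21 from 42199689 to 42297244) passes sterol to lipoprotein particles. ABCA1 counts were 85.1, 85.6 and 99.4 in Scramble against 469, 516 and 395 in shOGT, and all shOGT libraries were higher (log2 fold change 2.34, SE 0.15, adjusted p = 3.43e-09). ABCG1 counts were 922, 942 and 854 in Scramble against 233, 216 and 240.2 in shOGT, and all shOGT libraries were lower (log2 fold change −1.97, SE 0.11, adjusted p = 6.30e-10). ABCG1 kept its call after rescaling, at −1.26. Thus ABCA1 rose 5.11-fold while ABCG1 fell to 25.4% of its Scramble level in the same libraries.

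The other ABCA genes also went both ways. ABCA3, which loads phospholipid into lamellar bodies of the lung, rose from 15.3 ± 5.83 to 77.6 ± 15.3 (SD, n = 3) (log2 fold change 2.31, SE 0.33, adjusted p = 1.31e-05). ABCA13, a very large ABCA protein, had 3.55, 2.70 and 3.68 in Scramble against 42.1, 54.6 and 13.7 in shOGT, with 1 shOGT library well below the other two (log2 fold change 2.93, SE 0.49, adjusted p = 5.41e-05). ABCA2, a lipid transporter of endolysosomes, was the ABCA gene with the most counts and fell from 3189 ± 316 to 1361 ± 32.2 (SD, n = 3) (log2 fold change −1.22, SE 0.09, adjusted p = 1.34e-08). ABCA12, the lipid transporter of epidermal lamellar granules, went from a mean of 1020 to 402, with a log2 fold change of −1.37. ABCA7, a phospholipid transporter, went from 1361 to 559, with a log2 fold change of −1.29. These last 3 were not called after rescaling, at −0.51, −0.65 and −0.57. ABCD3, the major peroxisomal membrane ABC protein, was at 1079, 1139 and 1203 in Scramble against 2450.4, 2949.7 and 2519 in shOGT (log2 fold change 1.21, SE 0.09, adjusted p = 2.31e-08).

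**Figure D2:**
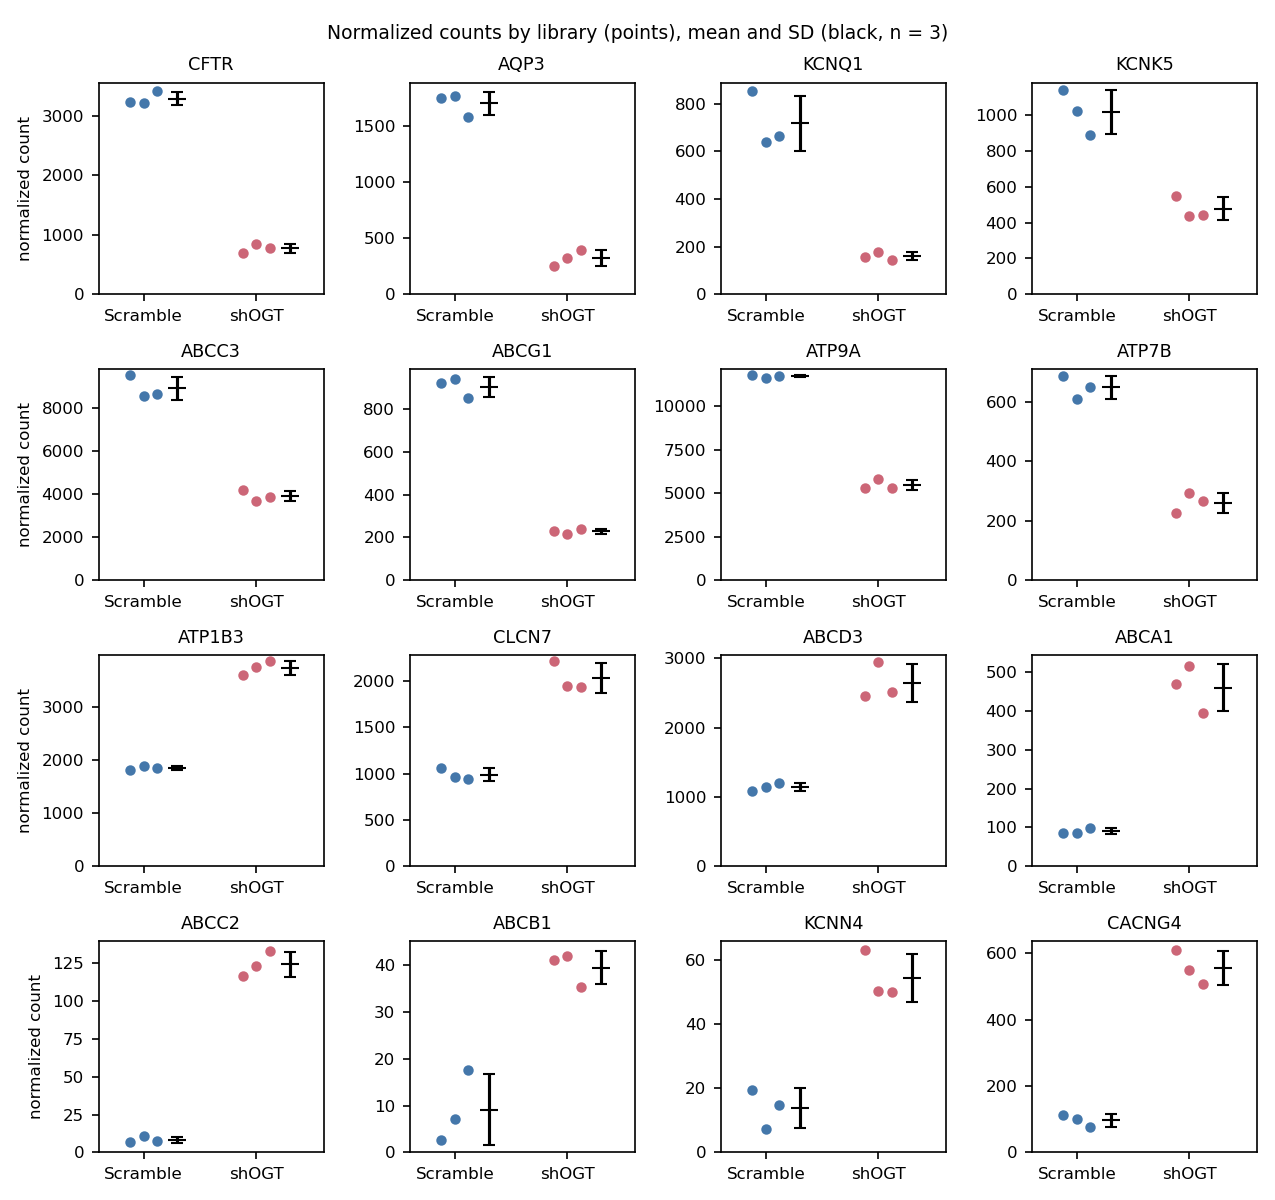
Normalized counts of 16 of the genes in each library (blue, Scramble; red, shOGT; linear axes from 0), with the mean and SD in black (n = 3). In each panel the libraries of the 2 groups are apart, with CFTR at 3218 to 3413 in Scramble against 686 to 847 in shOGT, and ABCB1 showing the widest relative spread among its Scramble libraries.

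P-type ATPases form a phosphorylated intermediate in each transport cycle and include the sodium, calcium and copper pumps and the P4 lipid flippases. Of the 9 listed, 5 rose and 4 fell. ATP1B3 (chromosome 3 from 141876124 to 141926514), a beta subunit of the sodium pump, had the most counts of the higher pumps, with 1819, 1901 and 1863 in Scramble against 3617, 3757 and 3880.2 in shOGT (log2 fold change 1.01, SE 0.08, adjusted p = 2.39e-08). This change lay at the 2-fold threshold, and the call was lost without Scramble library 1 (log2 fold change 0.9939) and without shOGT library 6 (0.9857). ATP1B4, of the same family, had 1 read over the Scramble libraries and 17 over the shOGT libraries (ratio 20.5, 95% counting interval 3.21 to 855). It passed the filter through the shOGT libraries alone and so could only be higher there. Of the calcium pumps, ATP2A3, which returns calcium to the endoplasmic reticulum, was at 157, 85.6 and 103 in Scramble against 346, 325 and 259.5 in shOGT (log2 fold change 1.46, SE 0.21, adjusted p = 1.08e-05).

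Of the listed copper and lipid pumps, all but ATP8B3 were lower, beside 57.1% of protein-coding genes tested that were called lower. ATP7B, the copper exporter mutated in Wilson disease, fell from 649.9 ± 38.2 to 261 ± 33.8 (SD, n = 3) (log2 fold change −1.32, SE 0.12, adjusted p = 1.25e-07). Among the 4 listed flippases, which move phospholipids to the cytoplasmic leaflet, ATP9A, ATP8A1 and ATP10B fell and ATP8B3 rose. ATP9A (chromosome 20 from 51596514 to 51768634) had the highest count of all 67 genes, with 11797, 11649 and 11734 in Scramble against 5306, 5816 and 5319 in shOGT (log2 fold change −1.10, SE 0.08, adjusted p = 1.16e-08). Its Scramble libraries differed by little from each other, and each shOGT library held under 50% of them. ATP8A1 was at 220.0, 205 and 276 in Scramble against 75.8, 116 and 55.8 in shOGT (log2 fold change −1.55, SE 0.24, adjusted p = 2.26e-05), and ATP10B fell from 283 ± 21.6 to 107 ± 10.3 (SD, n = 3). The 4 lower pumps were not called after rescaling, at −0.60 for ATP7B, −0.38 for ATP9A, −0.83 for ATP8A1 and −0.69 for ATP10B. ATP8B3 rose from 36.8 ± 5.72 to 80.9 ± 22.9, a log2 fold change of 1.09 that was 0.88 and not called without shOGT library 6. Most P4 flippases, but not ATP9A, need a CDC50 subunit, and the 2 listed CDC50 genes moved in opposite directions. TMEM30A was at 1779, 1943 and 1898 in Scramble against 3987, 4674 and 4816 in shOGT (log2 fold change 1.26). TMEM30B was at 1027, 1024 and 955 in Scramble against 454, 392 and 413 in shOGT (−1.26, and −0.54 and not called after rescaling). ATOX1, the copper chaperone that delivers to ATP7B, rose from 176 ± 4.58 to 377 ± 41.5.

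Lysosomal acidification genes were taken from a list outside the symbol rule. That list was chosen for this comparison with earlier results of these data known. The V-ATPase pumps protons into lysosomes, and of 27 V-ATPase and gastric H,K-ATPase genes 9 were listed, all of them V-ATPase subunits. All 9 rose and none fell, with log2 fold changes from 1.02 to 2.54 and a median of 1.53, beside 42.3% of protein-coding genes called higher. Because of how the list was chosen, nothing is read from this count. The call of ATP6V1A was lost without Scramble library 1 (log2 fold change 0.982), shOGT library 5 (0.9998) or library 6 (0.9903), and that of ATP6V1G1 without shOGT library 4 (0.903). ATP6V1D, a stalk subunit, was at 244, 305 and 266 in Scramble against 1614, 1624 and 1491 in shOGT (log2 fold change 2.54, SE 0.11, adjusted p = 8.34e-11). ATP6V0E1, a small membrane subunit, was at 559, 598 and 550.3 in Scramble against 2785, 2806 and 3252 in shOGT (log2 fold change 2.37, SE 0.09, adjusted p = 4.96e-11). In both genes every shOGT library was over 4 times every Scramble library. ATP6V1A, the catalytic subunit, had the most counts of the subunits and rose from 2182 ± 107 to 4440.4 ± 299 (SD, n = 3) (log2 fold change 1.02, SE 0.09, adjusted p = 4.42e-08). CLCN7 (chromosome 16 from 1444934 to 1475580), the chloride-proton exchanger of lysosomes, was at 1065, 961 and 939.5 in Scramble against 2211, 1942 and 1936 in shOGT (log2 fold change 1.04, SE 0.09, adjusted p = 9.24e-08). Its call was lost without shOGT library 4, at 0.97. MCOLN1, the lysosomal calcium channel, rose from 115 ± 6.39 to 436 ± 32.5 (SD, n = 3) (log2 fold change 1.91, SE 0.13, adjusted p = 7.67e-09). ATP6V1G2 had only 7, 6 and 7 reads in the Scramble libraries. Of its exon bases, 13.65% overlap ATP6V1G2-DDX39B on the same strand and 9.41% overlap NFKBIL1 on the opposite strand, so its count is uncertain. Of CLCN7's exon bases, 13.8% overlap AL031600.3 on the opposite strand, and whether the counting used strand is not given in the sources used here.

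**Figure D3:**
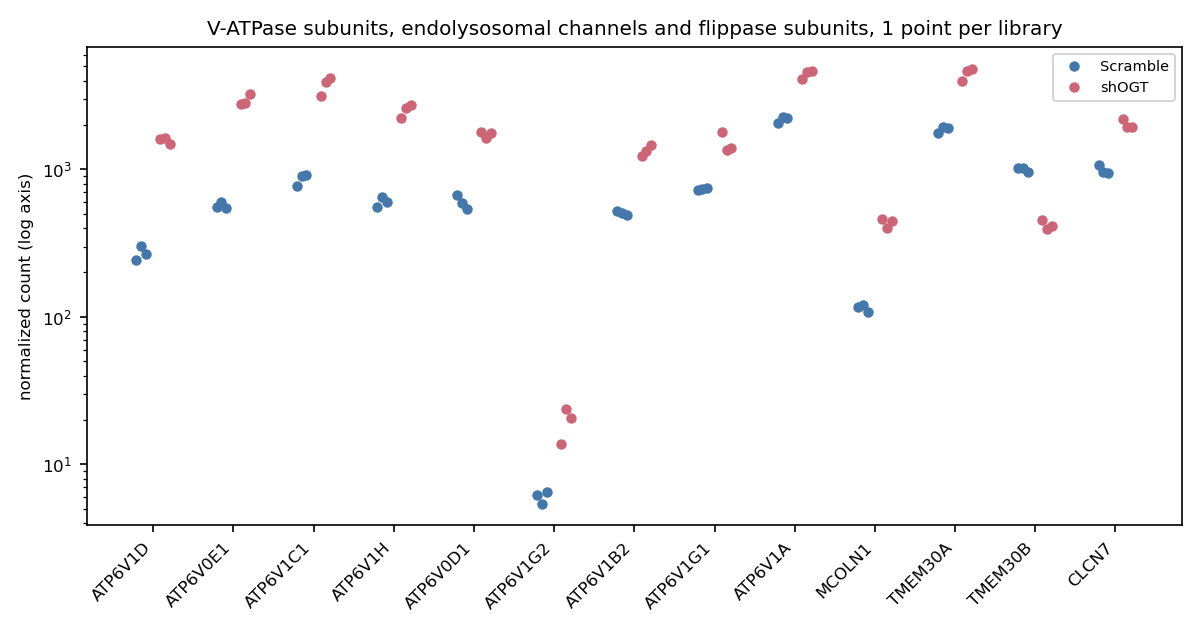
Normalized counts per library on a log axis for the 9 listed V-ATPase subunits, MCOLN1, the CDC50 subunits TMEM30A and TMEM30B, and CLCN7 (blue, Scramble; red, shOGT; 3 points per group). The red points lie above the blue points in every gene shown except TMEM30B, and ATP6V1G2 stands far below the other subunits in level.

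Promoter stretches of some of these lysosomal genes are shown, chosen after the direction of the genes was known. Not every endolysosomal gene rose, since ABCA2 fell from 3189 to 1361 and was not called after rescaling. CACGTG is the E-box hexamer that basic helix-loop-helix factors such as MYC and TFEB can bind, and it reads the same on both strands. It was searched in the RefSeq windows on GRCh38.p14 from 250 bases before to 50 bases after each start site. A window was present for 48 of the 67 genes and for 4 of the 9 V-ATPase genes. The hexamer occurred in 8 of the 48 (16.7%), in 2 of the 4, and in 8.78% of the 27305 genes with a window. It was in 5 of 29 higher and 3 of 19 lower genes. The stretches around the hexamers of CLCN7 (chr16:1475029-1475125, minus strand), MCOLN1 (chr19:7522533-7522623, plus), ATP6V0D1 (chr16:67481161-67481266, minus) and ATP6V1G1 (chr9:114587661-114587766, plus) run as follows, 5′ to 3′, with the hexamer in capitals.
CLCN7: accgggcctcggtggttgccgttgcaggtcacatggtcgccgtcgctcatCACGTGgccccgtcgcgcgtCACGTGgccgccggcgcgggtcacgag
MCOLN1: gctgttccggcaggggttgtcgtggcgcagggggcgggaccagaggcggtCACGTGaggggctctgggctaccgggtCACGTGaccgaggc
ATP6V0D1: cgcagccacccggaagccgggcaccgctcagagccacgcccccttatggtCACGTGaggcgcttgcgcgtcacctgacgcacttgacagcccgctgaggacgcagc
ATP6V1G1: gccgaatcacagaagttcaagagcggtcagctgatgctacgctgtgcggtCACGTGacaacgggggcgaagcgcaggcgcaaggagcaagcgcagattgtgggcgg
CLCN7 held 2 hexamers, starting 47 and 27 bases before the start site, and MCOLN1 held 2, at 41 and 14 bases. In ATP6V0D1 and ATP6V1G1 the hexamer started 59 and 58 bases before it. A match is a description of the letters in the window. Only genes with a match are shown, no binding was measured, and a part of the hexamer in any change was not tested. No window was matched for ABCC3, ABCC8, ABCG1, ATP2A3, CACNG4, KCNMB4, KCNQ1, KCNS1, P2RX5-TAX1BP3, SCN4A, SCNN1D, AQP11, KCNQ3, P2RY6, TMC8 and TRPM5 among the genes described.

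Potassium channels set the membrane potential. Of the 17 listed genes 10 rose and 7 fell. KCNQ1 (ENSG00000053918, chromosome 11 from 2444684 to 2849110) is a voltage-gated channel that recycles potassium during epithelial secretion. It was at 852, 642 and 663 in Scramble against 158, 178 and 142 in shOGT, or 22.2% of the Scramble level (log2 fold change −2.16, SE 0.14, adjusted p = 3.45e-09). After rescaling the log2 fold change was −1.45. KCNQ1OT1, the antisense RNA that starts within KCNQ1, was looked up after its values were seen. It went the other way, at 337, 424 and 439.9 in Scramble against 2414, 2581 and 2128 in shOGT (log2 fold change 2.57, SE 0.12, adjusted p = 1.45e-10). The antisense transcript overlaps 2.72% of KCNQ1 exon bases on the opposite strand. KCNK5, a background potassium channel of epithelia, had the most counts of the potassium channel genes, with 1141, 1023 and 892 in Scramble against 550.5, 436 and 443 in shOGT (log2 fold change −1.10, SE 0.12, adjusted p = 8.65e-07). It was not called after rescaling, at −0.38.

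Channels gated by intracellular ions differed in direction. KCNN4, the calcium-activated channel of the colonic basolateral membrane, was at 19.5, 7.21 and 14.7 in Scramble against 63.2, 50.3 and 50.1 in shOGT (log2 fold change 2.00, SE 0.37, adjusted p = 1.41e-04). Thus KCNQ1 fell while KCNN4 rose, although KCNN4 remained the lower of the pair per kb of exon, at 16.0 ± 2.19 against 35.8 ± 4.0 in shOGT (SD, n = 3). KCNMB4, an accessory subunit of the large-conductance calcium-activated channel, fell from 57.1 ± 3.06 to 15.3 ± 3.57 (SD, n = 3) (log2 fold change −1.86, SE 0.30, adjusted p = 4.70e-05). KCNT1, a sodium-activated channel, rose from few counts, with 5.32, 0.901 and 3.68 in Scramble against 45.3, 61.1 and 44.4 in shOGT (log2 fold change 3.73, SE 0.46, adjusted p = 2.76e-06).

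The inward rectifiers KCNJ5 and KCNJ3, subunits of the channel opened by G proteins, were both low. KCNJ5 was at 32.8, 16.2 and 20.2 in Scramble against 7.37, 3.21 and 0 in shOGT (log2 fold change −2.82, SE 0.64, adjusted p = 7.36e-04), and its log2 fold change was −1.96 without shOGT library 6 and −3.49 without library 4. KCNJ3 was at 15.1, 19.8 and 5.52 in Scramble against 2.11, 6.43 and 0 in shOGT, with 1 shOGT library above 1 Scramble library. Its log2 fold change of −2.19 was −1.43 without library 6 and −2.88 without library 5. KCNJ18, a muscle inward rectifier, had 0 reads in every Scramble library and 11 over the shOGT libraries, at least 1.47-fold higher against a floor of 3 reads per library. KCNJ18 passed the filter through the shOGT libraries alone and so could only be higher there. Its count is uncertain, since 28.0% of the 75-base stretches of its transcript occur in KCNJ12 or AC069061.1 as well.

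Among the voltage-gated genes, 7 of 10 rose, beside 42.3% of protein-coding genes tested that were called higher. The silent subunits KCNS1 and KCNS3, which form no channel alone and modify others, had 1 and 2 reads over the Scramble libraries. KCNS1 was at 25.3, 23.6 and 21.6 in shOGT, a ratio of 78.2 whose 95% counting interval runs from 13.6 to 3136. KCNS3 was at 8.42, 9.64 and 9.11 in shOGT, a ratio of 15.0 with an interval from 3.75 to 131. Both genes passed the filter through the shOGT libraries alone and so could only be higher there. KCNC4, a voltage-gated potassium channel, rose from 17.5 ± 7.33 to 93.4 ± 31.8 (SD, n = 3) (log2 fold change 2.39, SE 0.36, adjusted p = 1.95e-05). KCNQ3, KCNIP3, KCNG3 and KCND1 rose with log2 fold changes of 1.66, 1.66, 1.77 and 1.70. KCNAB2, a cytoplasmic beta subunit, went from 338 ± 100.4 to 163 ± 33.5, and its call was lost without Scramble library 1 (−0.80) or shOGT library 6 (−0.85). It was not called after rescaling, at −0.32.

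Of the sodium and calcium channel genes, 3 of 4 rose. SCN4A (chromosome 17 from 63938554 to 63972918), the sodium channel of skeletal muscle, had the lowest log2 fold change of the 67. Its values were 31.9, 28.8 and 42.3 in Scramble against 5.26, 1.07 and 2.28 in shOGT, or 8.35% of the Scramble level (log2 fold change −3.32, SE 0.46, adjusted p = 8.26e-06), and −2.72 after rescaling. SCNN1D, the delta subunit of the epithelial sodium channel family, was at 39.9, 9.01 and 23.0 in Scramble against 90.5, 72.8 and 79.7 in shOGT (log2 fold change 1.93, SE 0.41, adjusted p = 4.54e-04). CACNG4 (chromosome 17 from 66964910 to 67033398), an auxiliary subunit that also binds AMPA receptors, was the best covered of these genes, with 114, 101 and 76.4 in Scramble against 609, 548 and 508 in shOGT (log2 fold change 2.52, SE 0.16, adjusted p = 3.06e-09). CACNA2D1, the alpha2delta subunit bound by gabapentin, had 6 reads over the Scramble libraries and 32 over the shOGT libraries (ratio 6.42, 95% counting interval 2.65 to 18.8). Its Scramble libraries alone did not reach the filter, so the interval is no support for a rise.

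Besides CLCN7, the listed chloride channel families held 3 CLIC genes and 1 anoctamin. All 3 CLIC genes, whose proteins exist in soluble and membrane forms, rose. CLIC5 was at 68.3, 56.8 and 70.9 in Scramble against 283, 269 and 315 in shOGT (log2 fold change 2.13, SE 0.17, adjusted p = 2.41e-08). CLIC2 and CLIC3 rose with log2 fold changes of 1.81 and 1.39, from 21.7 ± 3.60 to 79.5 ± 18.9 and from 92.3 ± 25.8 to 243 ± 62.8. ANO3, an anoctamin, was at 94.9, 149 and 149 in Scramble against 50.5, 42.8 and 44.4 in shOGT (log2 fold change −1.46, SE 0.23, adjusted p = 3.51e-05) and was not called after rescaling, at −0.76.

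The TRP, PIEZO and TMC families had 5 listed genes. TRPV3, a warm-sensitive cation channel of keratinocytes, rose in all shOGT libraries, with 58.5, 63.1 and 56.1 in Scramble against 239, 314 and 281 in shOGT (log2 fold change 2.20, SE 0.17, adjusted p = 2.37e-08). PIEZO2, the mechanically gated channel of touch neurons, had 2 reads over the Scramble libraries and 27 over the shOGT libraries (ratio 16.2, 95% counting interval 4.08 to 141). Its Scramble libraries alone did not reach the filter, so the interval is no support for a rise. TMC4 and TMC8, of the transmembrane channel-like family, fell. TMC4 was at 911, 680.3 and 639.5 in Scramble against 334, 323 and 266 in shOGT (log2 fold change −1.26, SE 0.14, adjusted p = 1.00e-06), and TMC8 went from 246 ± 5.89 to 114 ± 18.0. Neither was called after rescaling, at −0.54 and −0.41. TRPM5, the calcium-activated cation channel of taste and tuft cells, was the gene not called. Its Scramble values of 50.5, 9.01 and 35.0 enclosed its shOGT values of 13.7, 11.8 and 10.2 (log2 fold change −1.05, SE 0.51, adjusted p = 0.0617). Without Scramble library 1 the log2 fold change was −0.57, and without Scramble library 2 it was −1.75. On the recovered reads, edgeR and DESeq2 called TRPM5 lower.

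Aquaporins were the family with the largest listed share, and 4 of 7 rose while 3 fell. AQP3 (ENSG00000165272, chromosome 9 from 33441154 to 33447633), the basolateral water and glycerol channel of colonic epithelium, was at 1753, 1769 and 1580.0 in Scramble against 249, 321 and 394 in shOGT. All shOGT libraries lay below all Scramble libraries, with 18.9% of the Scramble level (log2 fold change −2.42, SE 0.14, adjusted p = 1.13e-09) and a log2 fold change of −1.71 after rescaling. AQP7, another glycerol channel, was at 12.4, 8.11 and 22.1 in Scramble against 1.05, 2.14 and 6.83 in shOGT, with a log2 fold change of −1.93. The water channels AQP1 and AQP11 rose from 78.6 ± 22.6 to 221 ± 12 and from 27.9 ± 7.80 to 86.9 ± 1.85. Of AQP1 exon bases, 26.5% overlap AC004691.2 on the same strand, so its count is uncertain. AQP9, a channel for water and small solutes, rose from 1.49 ± 1.84 to 12.2 ± 6.94 (SD, n = 3) (log2 fold change 2.55). Its Scramble libraries alone did not reach the filter, so nothing is read from its direction. Of its exon bases, 10.9% overlap ALDH1A2 on the opposite strand.

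AQP2, the vasopressin-regulated channel of the kidney, and AQP5, the channel of gland secretion, lie 2.99 kb apart on chromosome 12 and moved in opposite directions. AQP2 was at 40.8, 36.0 and 38.6 in Scramble against 17.9, 7.50 and 7.97 in shOGT (log2 fold change −1.80, SE 0.38, adjusted p = 4.16e-04), and 13% of its exon bases overlap AC025154.1 on the opposite strand. AQP5 was at 55.9, 37.8 and 42.3 in Scramble against 123, 82.5 and 95.6 in shOGT (log2 fold change 1.13, SE 0.25, adjusted p = 5.32e-04), and its call was lost without shOGT library 4, at 0.97. Both windows held CACGTG, in capitals below, at chr12:49950628-49950733 for AQP2 and chr12:49961622-49961706 for AQP5, both on the plus strand. The stretches are shown as a description of 2 neighbours, and a part of the hexamer in either change was not tested.
AQP2: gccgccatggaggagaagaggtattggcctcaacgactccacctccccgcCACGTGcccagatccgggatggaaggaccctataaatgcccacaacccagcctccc
AQP5: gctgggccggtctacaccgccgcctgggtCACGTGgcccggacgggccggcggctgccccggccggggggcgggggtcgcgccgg
The hexamer started 59 bases before the start site of AQP2 and 221 bases before that of AQP5.

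Purinergic receptors respond to extracellular nucleotides. P2RY1, a receptor for ADP, was at 97.6, 113 and 117 in Scramble against 261, 257 and 239 in shOGT (log2 fold change 1.21, SE 0.15, adjusted p = 3.07e-06). P2RX4, an ATP-gated cation channel, was at 262, 251 and 249 in Scramble against 122, 129 and 121 in shOGT (log2 fold change −1.03, SE 0.14, adjusted p = 7.38e-06) and was not called after rescaling, at −0.32. P2RY6, a receptor for UDP, had 1 read over the Scramble libraries and 16 over the shOGT libraries (ratio 19.2, 95% counting interval 2.99 to 807). It passed the filter through the shOGT libraries alone and so could only be higher there. P2RX5-TAX1BP3, a readthrough of P2RX5 into its neighbour, was at 4.43, 3.60 and 1.84 in Scramble against 32.6, 25.7 and 22.8 in shOGT (log2 fold change 2.74, SE 0.41, adjusted p = 1.98e-05). Other genes, chiefly P2RX5 and TAX1BP3, share 45% of the 75-base stretches of its transcript, so its count is uncertain.

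Levels between genes were compared per kb of exon, as the mean normalized count divided by the length in the table. In Scramble the order was led by ATP9A at 1410 ± 8.94 (SD, n = 3), ABCC3 at 927 ± 54.5, ATP1B3 at 720.3 ± 15.9, AQP3 at 577 ± 35.6 and CFTR at 352 ± 11.6. These 5 neighbours in the order differed by more than their SDs, whereas ABCA2 at 277 ± 27.4, KCNK5 at 271 ± 33.3 and TMC4 at 243 ± 47.8 did not. In shOGT the order was led by ATP1B3 at 1452 ± 51.0, then ATP9A at 659 ± 35.0, ABCC3 at 407 ± 25.2 and ABCD3 at 348 ± 35.7. ABCC3 and ABCD3 lay within the sum of their SDs. AQP3 went from place 4 to place 10 and CFTR from place 5 to place 12, while KCNQ1 went from place 10 to place 23. With coding length in place of exon length, 7 of the 10 leading Scramble genes were shared, and the order among the first 5 changed, with ATP1B3 at 2224 per kb above ABCC3 at 1945 and AQP3 at 1942.

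**Figure D4:**
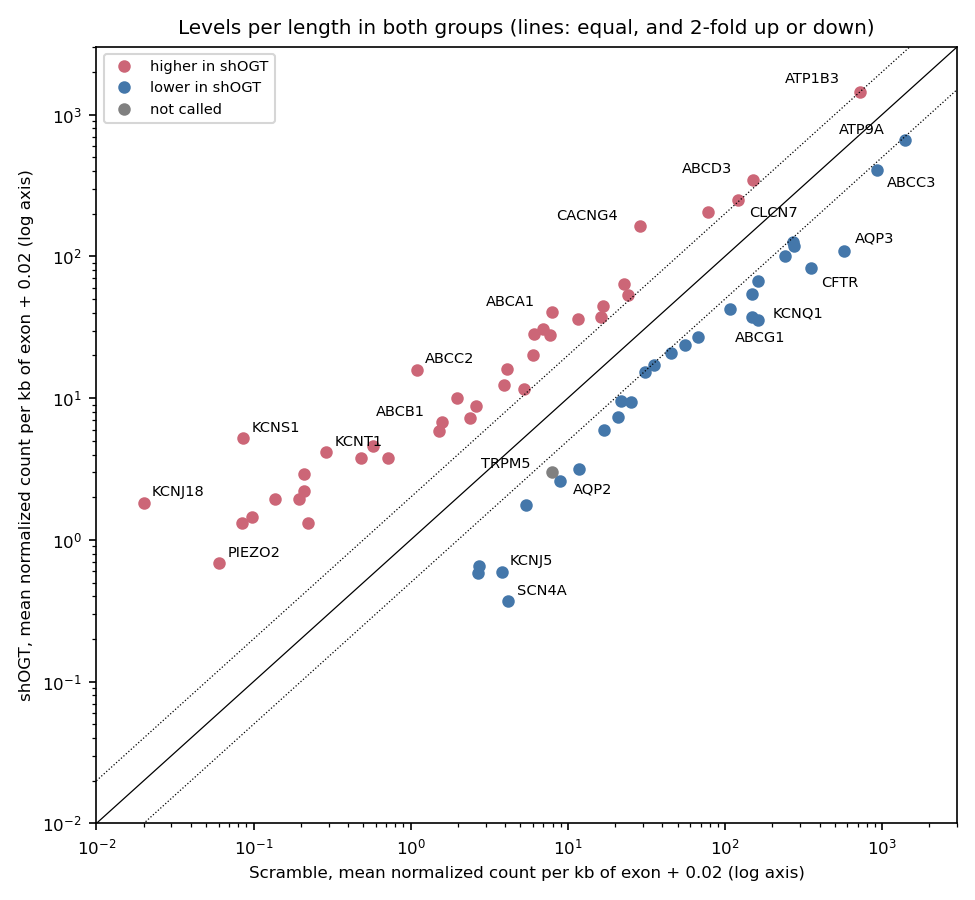
Mean normalized count per kb of exon of each of the 67 genes in Scramble and in shOGT, on log axes with 0.02 added (red, called higher; blue, called lower; grey, TRPM5). The solid line marks equal levels and the dotted lines a 2-fold difference, and the blue genes lie mostly at the upper right while the red genes reach down to KCNJ18, which had no Scramble reads.

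Some of the genes were close neighbours on the genome. AQP3 and AQP7, 38.5 kb apart on chromosome 9, were both lower. TRPV3, P2RX5-TAX1BP3 and ATP2A3 lie within one stretch of chromosome 17, with gaps of 105 kb and 228 kb, and all 3 were higher. KCNQ1 and TRPM5 are 21.6 kb apart on chromosome 11 and had negative fold changes, with TRPM5 not called. ABCA2 and CLIC3, 10.4 kb apart on chromosome 9, differed in direction, as AQP2 and AQP5 did. Further exon bases overlapped genes on the opposite strand, with 10.2% in TRPM5, 6.78% in CACNG4, 7.96% in TMEM30B and 6.33% in ATP6V1D, and without strand such reads cannot be told apart.

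Other transport genes outside the symbol rule were taken from 8 lists. Of their 183 symbols, 44 were in the table, of which 27 were called higher, 16 lower and 1 (SGK3) not. With a mean of at least 10, 22 were higher and 16 lower. CHRND had 0 reads over the Scramble libraries and CNGB1 had 3. Both passed the filter only with the shOGT libraries. The lists were also chosen with earlier results of these data known, so nothing is read from these counts. Among protein-coding genes tested, 42.3% were called higher and 57.1% lower. After rescaling 27 of the other transport genes were higher and 6 lower, beside 42.6% higher and 22.6% lower of the protein-coding genes. Of the ligand-gated channels 4 of 9 rose and 5 fell. GABRP, an epithelial GABA receptor subunit, was at 148, 104 and 122 in Scramble against 10.5, 10.7 and 13.7 in shOGT (log2 fold change −3.31, SE 0.28, adjusted p = 5.37e-08), and GRIN2D, a glutamate receptor subunit, fell from 790.1 ± 66.6 to 246 ± 38.3 (SD, n = 3), and was not called after rescaling, at −0.98. Of the gap junction and large-pore channels 5 of 7 rose. PANX1, a large-pore channel that releases ATP, was at 713, 792 and 745 in Scramble against 1341, 1578 and 1655 in shOGT (log2 fold change 1.02, SE 0.10, adjusted p = 2.52e-07), and its call was lost without Scramble library 1 (0.982), shOGT library 5 (0.9901) or library 6 (0.956). Of the calcium release and entry genes 2 of 5 rose and 3 fell. MCU, the pore of the mitochondrial calcium uniporter, was at 704, 668 and 743 in Scramble against 2325, 2542 and 2834 in shOGT (log2 fold change 1.86, SE 0.10, adjusted p = 4.58e-10), and STIM1, the calcium sensor of the endoplasmic reticulum, fell from 1369 ± 72.2 to 586 ± 31.2 (SD, n = 3) (log2 fold change −1.22, SE 0.09, adjusted p = 1.79e-08). TTYH3, a tweety-family protein, fell from 3681 ± 494 to 828 ± 189.7 (SD, n = 3) (log2 fold change −2.17, SE 0.14, adjusted p = 3.25e-09). WNK1, a kinase that regulates chloride cotransporters, fell from 6827 ± 301 to 3395 ± 319 (SD, n = 3), with a log2 fold change of −1.01 that was −0.98 without Scramble library 3 and −0.94 without shOGT library 4. TAP2, an antigen peptide transporter of the ABC class, went from 689 ± 27.1 to 299 ± 19.7, and 32.3% of its exon bases overlap AL669918.1 on the same strand. After rescaling STIM1, WNK1 and TAP2 were not called, at −0.51, −0.29 and −0.49, while GABRP and TTYH3 kept their calls.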

How the data were processed

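The authors deposited 1 table of normalized counts (unit signal) per gene and library, with no division by gene length, together with each gene's length in bases. The table also holds their averages per group and the fold changes, raw and adjusted p-values of their own test. None of these entered the fits or calls here. Their fold changes and adjusted p-values were read only to describe which genes were listed. All values (100%) came out as whole numbers of reads after multiplication by 1 factor per library, within a tolerance of 0.02 reads, so read counts were recovered. The submitters' processing notes name cutadapt 1.9, HISAT2 2.0.4, UMI-tools, StringTie 1.3.4d, DESeq2, edgeR and the mouse build mm8. The identifiers and positions nevertheless matched human GENCODE version 29 on GRCh38 for 5681 of 5681 genes. The labels describe oligo(dT) capture, dUTP-marked second strands and molecular identifiers, and the methods a strand-specific kit. Duplicate handling and the use of strand in counting are not given in the sources used here.

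The model, limma 3.58.1 in R 4.3.3 with its trend option, took log2(normalized count + 1) as the response and no term besides group. This scale understates the change of low genes. The plan allowed for raw counts, and the branch for normalized values was followed. The fit used the 5671 genes that reached 1 in 3 or more libraries. Benjamini-Hochberg adjustment ran over all of them, and every adjusted p in the text comes from it. The code of the fit was tested on simulated data in which 200 genes changed and the rest did not. Nearly all genes of the real table were called, so that test says nothing on scaling or error rates here. Alternatives were rescaling, a pseudocount of 0.1, no filter, a mean of at least 10, each library left out, and edgeR 4.0.16 (deposited size factors or TMM) and DESeq2 1.42.0 on the recovered reads. Counting intervals are exact binomial at 95%, and floors are 3 reads per library. PCR duplicates may not be independent, so both cover counting error only. A gene that passed the filter through the shOGT libraries alone had to be higher there, so its interval is no support for a rise. Nor is the interval of a gene whose Scramble libraries alone did not reach the filter.

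The genes and the lists of other transport genes were chosen with earlier results of these data known. Genes given full statistics were the 10 genes that rose most and the 10 that fell most among those with a mean of at least 10 and no overlap between groups, the gene with the highest mean of each family, and a list of 29 known intestinal and drug transport genes, 10 of them in the table. Other genes were named from the lists, for their position or to account for the rest of the 67. A few genes are counted but not reported here by name. Shared sequence was measured as stretches of 75 bases of GENCODE transcripts.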

Additional observations from a re-analysis of the deposited data

How the results depend on the processing

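Rescaling (median of ratios, listed genes) left 10 of the 67 genes lower and 6 of the other transport genes lower, and the number higher was 38 and 27 in both fits. It also left 9 ABC transporters, 5 P-type ATPases and 2 TRP, PIEZO and TMC genes called, and moved the median log2 fold change of the 67 genes to 1.92. That median was 1.02 with a mean of at least 10, 1.005 without shOGT library 4 and 1.03 without shOGT library 6. The pseudocount of 0.1 and the absence of a filter each gave 66 called genes, and edgeR with either scaling and DESeq2 each gave 67. No direction was reversed among the named genes and the counts under any of these settings. Leaving out 1 library ended the calls of ATP1B3, CLCN7, AQP5, ATP8B3 and KCNAB2 among the 67 genes, and of ATP6V1A, ATP6V1G1, PANX1, WNK1, RYR3 and CHRNB1 among the other transport genes, of which 23 to 27 were then higher and 15 to 17 lower. It also moved ABCB11, KCNJ3, KCNJ5 and TRPM5 by over 1.5 times. ATP1B4, KCNJ18, KCNS1, KCNS3 and P2RY6 (5 genes) did not reach the filter once a shOGT library was left out. No paired analysis was possible because the labels number the libraries 1 to 6 and the groups share no number. With 3 libraries per group an exact test of 1 gene cannot go below p = 0.1, and genes with few Scramble reads have wide counting intervals. Genes that did not pass the authors' thresholds were not analysed here, so the share of the families that changed cannot be read from these counts.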
